A study of Homo sapiens with 3 samples.

Results

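The MYC network is a set of 10 genes in these data: MYC, MYCN and MYCL, their obligate partner MAX, and the antagonists MXD1, MXD3, MXD4, MXI1, MNT and MGA. They were chosen by name, and their Ensembl identifiers were looked up in a deposited table of 19869 genes. All 10 were in the table, and all 10 had a mean of at least 1 FPKM (a fragment count divided by transcript length and library size). The set was put together with the low level of MYCN in the HKR3 library already known, so that value is a description.

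The series holds 3 libraries of Hep3B cells, a line from a human hepatocellular carcinoma, with 1 library in each of 3 groups. The control was labelled with Fugene treatment, the transfection reagent, and titled NT-Empty. The HKR3 library came from cells transfected with pcDNA3.1-HKR3, a plasmid for the zinc finger protein also called ZBTB48, and the third library from cells given siTERT, a small interfering RNA against the telomerase gene TERT. What nucleic acid the control received is unclear from the labels, which name a medium change at 6 h but no time of harvest. With 1 library a group there is no spread between replicates and no test: every value is a single measurement, and a 2-fold difference in FPKM + 1 stands in for a threshold.

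MYC, N-MYC and L-MYC are transcription factors of the basic helix-loop-helix leucine zipper class, which bind DNA as pairs with MAX at E-boxes and promote growth and ribosome production. The MXD proteins, MXI1 and MNT also pair with MAX, bind the same sites and recruit the SIN3 and histone deacetylase repressor, so the 2 kinds of pair compete. MXD1 is known from cells that leave the cycle and differentiate, MXD3 from cells in S phase, and MYC and N-MYC are known activators of TERT, the reason this network bears on a study of telomerase.

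The labels were checked first. ZBTB48 was at 4.91 FPKM in control cells, 2842 FPKM with the HKR3 plasmid and 4.89 FPKM under the siTERT label. TERT was at 4.69, 4.25 and 5.37 FPKM in the same order, so in these single libraries the siTERT label did not come with less TERT transcript. That library is therefore named by its label only, and whether its differences come from the treatment was not tested. All 8 hepatocyte and hepatoma markers were above 1 FPKM in each library and summed to 12634, 9658 and 13119 FPKM. AFP was at 4055, 2831 and 3855 FPKM and APOA1 at 1461, 713 and 1575 FPKM, both lowest in the HKR3 library. ALB, TTR, SERPINA1 and GPC3 were lowest there as well. Only KRT8, at 1073, 1353 and 1406 FPKM, and KRT18, at 794, 863 and 1087 FPKM, were lowest in the control. Endothelial and stromal markers summed to between 0.133 and 0.220 FPKM. Of 5 immune markers, PTPRC and CD3E were listed at 0 in every library, while LYZ was at 392, 210 and 392 FPKM. CD68 was at 32.7, 29.4 and 44.1 FPKM, and CD14 at 6.20, 3.13 and 4.82 FPKM. The immune list summed to 431, 243 and 441 FPKM, and its part in the results was not tested.

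In the HKR3 library, 3 of the 10 genes lay past 2-fold of the control: MXD1 was higher, and MYCN and MXD3 were lower. In whole cultures, fewer cells with a transcript and less of it per cell cannot be told apart. Over all 10974 measured genes, 5.52% lay above and 2.52% below this 2-fold threshold. The count of lower genes includes MYCN, which the choice of the set had used, and nothing is read from it. The median log2 difference of the 10 genes was 0.09, beside -0.02 for all measured genes. Scaling each library to the FPKM sum of the control moved the median of all genes by 0.14 and gave 7.84% higher and 1.52% lower genes, in place of the above; the higher genes were then 83.7% of those past 2-fold, against 68.6%. The same 3 genes of the network were past 2-fold after that scaling.

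**Figure D1:**
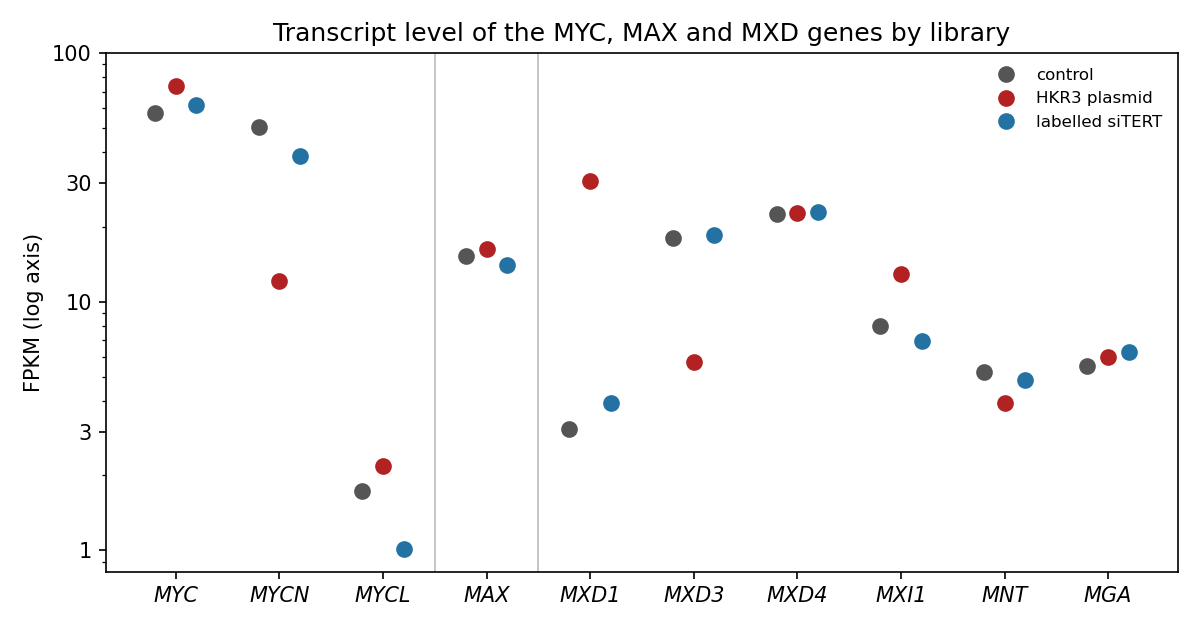
FPKM of each gene in the control, HKR3 and siTERT-labelled libraries, on a log axis, with 1 point per library. MYCN and MXD3 are lowest in the HKR3 library, at 12.1 and 5.72 FPKM, and MXD1 is highest there, at 30.7 FPKM.

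The promoters of these 3 genes are shown because their transcripts moved furthest, and were searched on both strands for short motifs of factors tied to this network or study. The sequences are RefSeq promoters of build GRCh38.p14, matched by symbol, and each is the 250 bases before the annotated start, 5′ to 3′ in the direction of transcription. Capitals mark the motif GGGCGG (the GC box, bound by SP1) and its reverse complement, TTTGGCGC (a form of the E2F site) and TGANTCA (the AP-1 site). No capitals overlap between motifs.
MYCN, chr2:15940300-15940549, plus strand: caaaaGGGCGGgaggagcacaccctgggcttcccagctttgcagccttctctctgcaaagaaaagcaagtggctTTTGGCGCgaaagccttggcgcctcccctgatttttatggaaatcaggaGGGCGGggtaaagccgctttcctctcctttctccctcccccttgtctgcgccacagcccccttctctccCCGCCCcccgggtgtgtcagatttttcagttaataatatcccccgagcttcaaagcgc
MXD1, chr2:69914859-69915108, plus strand: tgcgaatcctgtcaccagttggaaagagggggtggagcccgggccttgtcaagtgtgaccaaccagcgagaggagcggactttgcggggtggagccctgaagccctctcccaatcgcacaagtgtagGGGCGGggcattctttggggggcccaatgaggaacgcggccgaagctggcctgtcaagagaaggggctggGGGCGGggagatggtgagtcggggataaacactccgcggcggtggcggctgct
MXD3, chr5:177312753-177313002, minus strand: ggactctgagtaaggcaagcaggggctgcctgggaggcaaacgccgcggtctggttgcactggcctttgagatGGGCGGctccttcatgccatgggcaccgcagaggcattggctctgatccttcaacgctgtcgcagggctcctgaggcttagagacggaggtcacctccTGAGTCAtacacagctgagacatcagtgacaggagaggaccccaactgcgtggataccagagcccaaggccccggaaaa

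The MYCN promoter holds TTTGGCGC from position -176, counted from the start site, a motif found in 0.652% of 35116 promoter windows of 300 bases. Among the other windows of the network, only 1 of MGA holds it. The MXD3 promoter holds the AP-1 motif from position -79, which 7.71% of all windows hold, and that of MXD1 holds 2 GC boxes, which 45.0% of windows hold at least once. Among measured genes with a promoter there, 77.9% hold a GC box in at least 1 window, as do all 9 members searched. TTTGGCGC is in 1.41% of those measured genes and the AP-1 motif in 6.56%. The E-box CACGTG, the site of MYC and MAX, is in 7.26% of all windows and in those of MXD4 and MNT, but not in the 3 printed here. TTAGGG, the telomere repeat that ZBTB48 binds, is in 9.05% of all windows and in none of the 14 windows of the 9 members with a RefSeq promoter in the table used. The member without one is MYC, whose promoter was not searched for any motif. A second E2F form, TTTCCCGC, is in 1.63% of all windows and in none of these 14.

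Among the MYC-type genes, MYC and MYCN were at nearly the same level in the control and far apart in the HKR3 library. MYCN, best known as the amplified oncogene of neuroblastoma, was at 50.2 FPKM in control cells, 12.1 FPKM with the HKR3 plasmid and 38.4 FPKM under the siTERT label. It was thus high in both libraries without the HKR3 plasmid and low in the one with it, with a ratio to the control of 0.242. The 95% counting interval of that ratio ran from 0.208 to 0.280. Such intervals are exact binomial limits on fragments estimated from each gene's shortest coding transcript, which makes them wide, and cover counting error only. The log2 difference of MYCN was -1.96, the 6th lowest of 10974 genes. In the library labelled siTERT the ratio of MYCN to the control was 0.765, from 0.693 to 0.844, with a log2 difference of -0.38 that did not reach 2-fold. Only 2.65% of the units of 31 bases in MYCN transcripts occur in another gene, its antisense neighbour MYCNOS. MYCNOS was looked up with other genes near MYCN and was not among the measured ones.

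MYC was at 57.4 FPKM in control cells, 73.4 FPKM with the HKR3 plasmid and 62.0 FPKM under the siTERT label. It was the highest of the 10 genes in all 3 libraries, and highest in the HKR3 library, where MYCN was lowest. The ratio of MYC in the HKR3 library to the control was 1.28, with counting limits of 1.06 and 1.53, and its log2 difference of 0.35 did not reach 2-fold. In the library labelled siTERT the interval of the ratio, from 0.891 to 1.30, held 1, and on the longest transcript it ran from 1.006 to 1.16. The level of MYC was 1.14 times that of MYCN in the control, 6.04 times in the HKR3 library and 1.62 times in the library labelled siTERT.

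MYCL, the third MYC-type gene, was the lowest of the 10 in every library, at 1.74 FPKM in control cells, 2.18 FPKM with the HKR3 plasmid and 1.01 FPKM under the siTERT label. On its shortest transcript these levels stand for an estimated 8, 10 and 5 fragments. The interval of its ratio to the control ran from 0.410 to 3.36 with the HKR3 plasmid and from 0.146 to 1.97 under the siTERT label. On its longest transcript the second interval ran from 0.379 to 0.895, so whether MYCL was detectably lower there depends on which transcript is present.

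MAX, the partner shared by the MYC-type proteins and their antagonists, was at 15.2 FPKM in control cells, 16.2 FPKM with the HKR3 plasmid and 14.1 FPKM under the siTERT label. These levels lay close together, with ratios to the control of 1.07 (interval 0.735 to 1.598) and 0.924 (0.620 to 1.39). In each library MAX transcripts were fewer per length than those of the MYC-type genes together and those of the antagonists together.

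The antagonists went in opposite directions in the HKR3 library. MXD1, also called MAD1, was at 3.07 FPKM in control cells, 30.7 FPKM with the HKR3 plasmid and 3.90 FPKM under the siTERT label. It was lowest of the 6 antagonists in both libraries without the HKR3 plasmid and highest of them with it. The ratio to the control was 9.99, with a counting interval from 6.65 to 15.0. The log2 difference of 2.96 was the 17th highest of 10974 genes. In the library labelled siTERT the ratio of MXD1 was 1.27, from 0.738 to 2.09, so no difference was detectable on the shortest transcript. On the longest transcript the interval ran from 1.04 to 1.55.

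MXD3 was at 18.0 FPKM in control cells, 5.72 FPKM with the HKR3 plasmid and 18.5 FPKM under the siTERT label. Both libraries without the HKR3 plasmid lay together, and the HKR3 library was below them with a ratio to the control of 0.318, from 0.197 to 0.489. The log2 difference of -1.50 was the 37th lowest. MXD3 shares 37.8% of its annotated sequence, in units of 31 bases, with other genes, among them PRELID1 on the opposite strand, its pseudogenes and RAB24 on the same strand. RAB24 overlaps 18.0% of the exon bases of MXD3, which strand use in counting would not separate. Neither strand use nor how shared fragments were assigned is given, so the level of MXD3 is uncertain. RAB24 was at 31.6, 30.9 and 30.1 FPKM and PRELID1 at 368, 303 and 341 FPKM in control cells, the HKR3 library and the library labelled siTERT, neither of them past 2-fold.

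MXI1, also called MXD2, was at 8.003 FPKM in control cells, 12.9 FPKM with the HKR3 plasmid and 6.97 FPKM under the siTERT label. The HKR3 library was the highest, with a ratio to the control of 1.61, from 1.13 to 2.29, and a log2 difference of 0.63 that did not reach 2-fold. MXD4 was at 22.5 FPKM in control cells, 22.7 FPKM with the HKR3 plasmid and 22.9 FPKM under the siTERT label. It was the most abundant antagonist in the control, and the intervals of its 2 ratios to the control lay between 0.923 and 1.11.

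MNT, the antagonist that most cells express throughout the cycle, was at 5.23 FPKM in control cells, 3.91 FPKM with the HKR3 plasmid and 4.83 FPKM under the siTERT label. Its ratio in the HKR3 library was 0.748, from 0.436 to 1.29, so no difference was detectable at this depth on the shortest transcript. On the longest transcript the interval ran from 0.625 to 0.898. MGA, a very large protein that pairs with MAX inside a Polycomb complex, was at 5.52, 6.00 and 6.30 FPKM in the same order of libraries. The ratios of MGA to the control were 1.09 with the HKR3 plasmid and 1.14 under the siTERT label, both with intervals that held 1 on the shortest transcript. On the longest transcript the second interval ran from 1.04 to 1.25. Parts of MNT and MGA, 16.5% and 4.52% of their units of 31 bases, also occur in other genes.

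**Figure D2:**
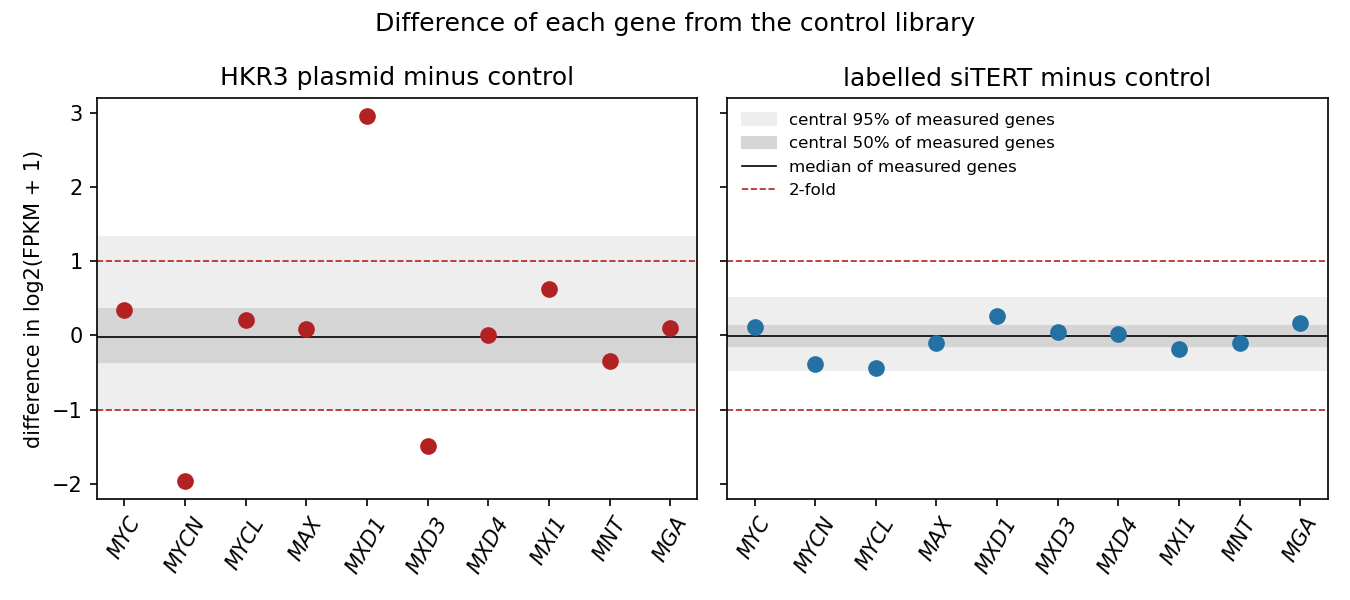
Difference in log2(FPKM + 1) of each gene from the control, in the HKR3 library (left) and in the library labelled siTERT (right), with 1 point per gene. Grey bands hold the central 95% and 50% of all 10974 measured genes, the line is their median and the dashed lines mark 2-fold; MXD1 at 2.96, MYCN at -1.96 and MXD3 at -1.50 lie past 2-fold on the left, and no gene does on the right.

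In the library labelled siTERT, 0 of the 10 genes were past 2-fold in either direction, beside 0.282% of all genes that were higher and 0.200% that were lower. The differences ran from -0.44 for MYCL to 0.27 for MXD1, with a median of -0.04, beside -0.01 for all measured genes. Both comparisons share the control library. Set directly against the library labelled siTERT, the HKR3 library again had MXD1 at least 2-fold higher, by 2.69 in log2, and MYCN and MXD3 at least 2-fold lower, at -1.58 and -1.54. In that comparison 4.11% of all genes were higher and 1.38% lower. With a pseudocount of 0.1 in place of 1, MYCL was also past 2-fold there, at 1.03.

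Since FPKM is per length, the levels of the competing partners can be added. The MYC-type genes summed to 109 FPKM in control cells, 87.7 FPKM with the HKR3 plasmid and 101 FPKM under the siTERT label. The 6 antagonists summed to 62.3, 81.9 and 63.4 FPKM in the same order. The ratio of the first sum to the second was 1.76 in the control, with limits of 1.62 and 1.91 from the pooled fragments of each sum. In the HKR3 library it was 1.07, from 0.968 to 1.18, and in the library labelled siTERT 1.599, from 1.47 to 1.74. These sums and ratios contain MYCN, whose low level in the HKR3 library was known when the set was chosen, so they are descriptions. The limits of these ratios cover counting error only and are too narrow. Pooling counts genes with long transcripts for more than their share of the FPKM sum. Among control antagonists, MXD4 stood for an estimated 950 fragments and 36.1% of the sum, and MXD3 for 82 fragments and 28.9%. Transcript sums say nothing of protein.

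The make-up of each sum differed as well. MYCN made up 45.9% of the MYC-type sum in the control and 13.8% in the HKR3 library. MXD1 made up 4.94% of the antagonist sum in the control and 37.5% in the HKR3 library, while the share of MXD3 was 28.9% and 6.98%. With MYCN left out, the ratio was 0.951 in control cells, 0.922 with the HKR3 plasmid and 0.994 under the siTERT label. With MXD1 left out it was 1.85, 1.71 and 1.70 in that order. The HKR3 library and the library labelled siTERT then lay together, too close for their order to be read. With both left out it was 0.9999, 1.48 and 1.06, so that the direction between the control and the HKR3 library turned. Among the genes that then remained, MYC was higher and MXD3 lower in the HKR3 library, which both raise the ratio. The antagonist MXI1 was also higher there, which lowers it.

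**Figure D3:**
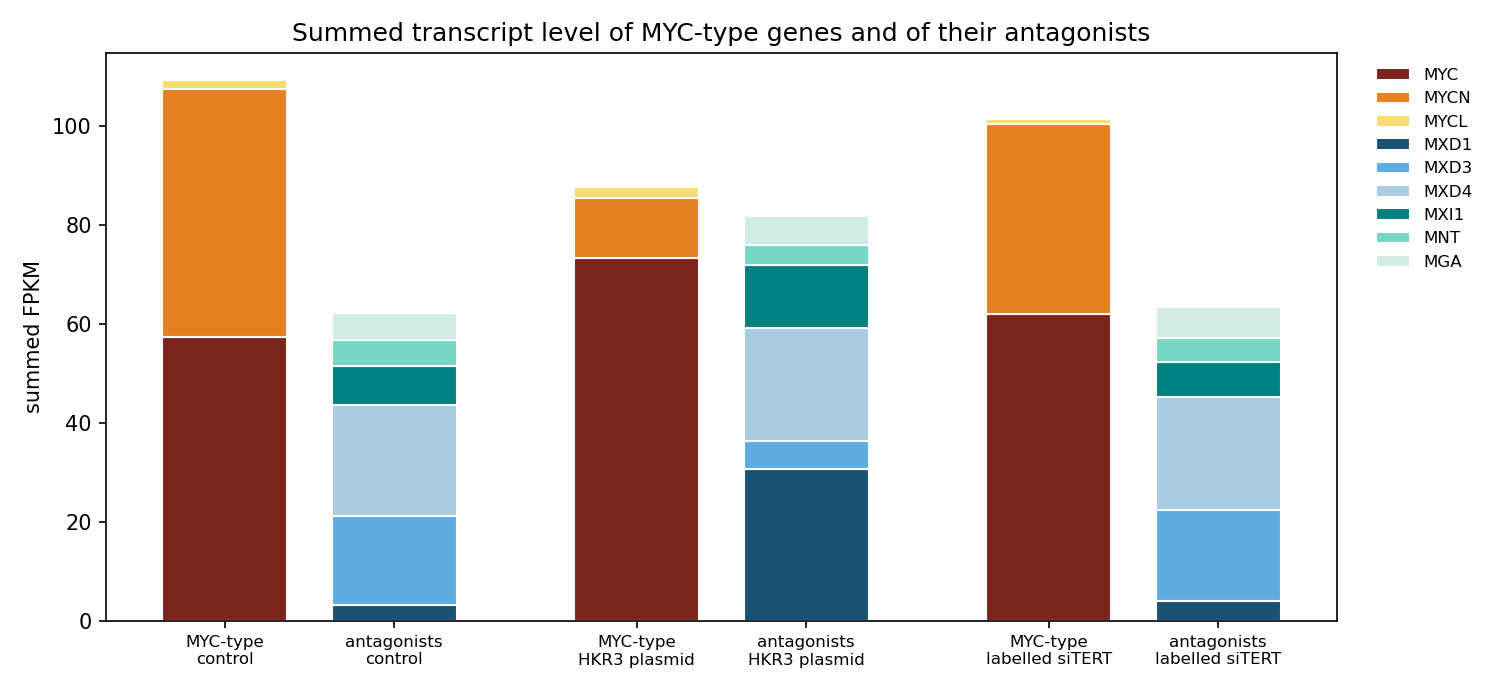
Summed FPKM of the 3 MYC-type genes and of the 6 antagonists in each library, as stacked bars from 0 with 1 color per gene. The MYC-type bar is 109 FPKM in control cells and 87.7 FPKM with the HKR3 plasmid, and the antagonist bar 62.3 and 81.9 FPKM.

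Other genes of the network were described from 10 lists, which were drawn up with earlier results of these data known and are no independent evidence. Their counts stand beside the 5.52% higher and 2.52% lower of all genes in the HKR3 library. Scaling to the control's sum raised the list medians along with that of all genes. Of 15 genes of the SIN3 and histone deacetylase repressor that the MXD proteins recruit, 2 were at least 2-fold higher and 0 lower, with a median of -0.01 that turned to 0.14 after that scaling and to 0.01 with the median of all genes set to 0. The higher ones were ARID4A, at 2.95 FPKM in control cells and 10.6 FPKM with the HKR3 plasmid, and ARID4B, at 4.51 and 14.4 FPKM, paralogous subunits of this complex. With a pseudocount of 5, ARID4A was within 2-fold, at 0.97. HDAC1, a deacetylase, was at 110 and 74.0 FPKM, and ING2, a reader of histone methylation, at 5.33 and 9.92 FPKM. SIN3A, the scaffold, was at 20.6 and 22.4 FPKM.

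Of 12 genes of the Polycomb complex that holds MGA, 2 were at least 2-fold higher and 1 lower, with a median of -0.06 that turned to 0.08 after scaling to the control's sum. RYBP and YAF2, related subunits that can replace one another, went together: RYBP was at 2.75 and 9.85 FPKM in the control and the HKR3 library, and YAF2 at 4.42 and 11.5 FPKM. With a pseudocount of 5 both were within 2-fold, at 0.94 and 0.81. TFDP1, the partner of E2F proteins, was at 60.1 and 28.8 FPKM, a log2 difference of -1.04 that was -0.88 after scaling and -0.94 with a pseudocount of 5, and CBX3, a heterochromatin protein, at 196 and 147 FPKM. The parallel arm of MLX and its partners had 4 measured genes with a median of 0.22, and 1 was past 2-fold. The median was 0.08 with no filter or a mean of at least 5 FPKM, 0.14 with a pseudocount of 5 and 0.36 after scaling. That gene was TXNIP, an inhibitor of thioredoxin and a target of this arm, at 15.0 FPKM in control cells, 71.1 FPKM with the HKR3 plasmid and 11.7 FPKM under the siTERT label. MLX itself was at 46.5 and 49.3 FPKM in the control and the HKR3 library, MLXIP at 9.83 and 8.51 FPKM and MLXIPL at 3.06 and 4.22 FPKM.

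Of 15 coactivators of MYC and the repressive partner MIZ1, 0 were past 2-fold with the HKR3 plasmid, and their median was 0.11, or 0.26 after scaling. The furthest was CCNT1, cyclin T1 of the elongation factor P-TEFb, at 6.53 and 12.8 FPKM, which was past 2-fold after scaling, at 1.016, and ZBTB17, which encodes MIZ1, was at 7.69 and 12.7 FPKM. KAT5, an acetyltransferase, was at 10.1 and 16.2 FPKM, and HCFC1 at 19.3 and 28.2 FPKM. Of 17 genes that act on the stability of MYC proteins, 2 were at least 2-fold higher and 0 lower, with a median of 0.11, or 0.26 after scaling. PIM1, a kinase that stabilises MYC, was at 5.44 FPKM in control cells, 30.9 FPKM with the HKR3 plasmid and 5.44 FPKM under the siTERT label. FBXW7, the ubiquitin ligase subunit that marks MYC and N-MYC for degradation, was at 3.70 and 8.77 FPKM in the control and the HKR3 library, and within 2-fold with a pseudocount of 5, at 0.66. SKP2, another ligase subunit that targets MYC, was at 85.3 and 48.5 FPKM. CIP2A, which shields MYC from a phosphatase, was at 30.1 FPKM in control cells, 17.6 FPKM with the HKR3 plasmid and 18.7 FPKM under the siTERT label, with log2 differences of -0.74 and -0.66 from the control.

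Of 10 genes that act on transcription of MYC, 2 were at least 2-fold higher with the HKR3 plasmid and 0 lower, and their median was 0.09, or 0.25 after scaling. TCF7L2, the DNA-binding partner of beta-catenin, was at 9.18 and 23.7 FPKM, and FUBP1, which binds a far upstream element of MYC, at 12.0 and 25.9 FPKM. With a pseudocount of 5, FUBP1 was within 2-fold, at 0.86. E2F1 was at 41.9 and 22.2 FPKM, and YY1 at 20.2 and 28.5 FPKM. Of the genes that lie near MYCN on chromosome 2, DDX1 and NBAS were measured. DDX1, an RNA helicase often amplified together with MYCN, was at 72.7 FPKM in control cells, 53.7 FPKM with the HKR3 plasmid and 62.6 FPKM under the siTERT label. NBAS was at 4.004, 4.50 and 5.12 FPKM, with neither neighbour past 2-fold in any comparison with the control. The ratio of DDX1 in the HKR3 library to the control was 0.739, and that of MYCN 0.242.

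Other factors that bind E-boxes had a median of 0.33 over 9 measured genes, with 2 at least 2-fold higher and 0 lower. That median was 0.14 with a pseudocount of 5. TFE3, a regulator of lysosome genes, was at 24.1 FPKM in control cells and 62.8 FPKM with the HKR3 plasmid, and BHLHE40, a repressor of clock genes, at 9.61 and 25.1 FPKM. ARNT was at 6.68 and 10.2 FPKM and TFEB at 2.63 and 1.63 FPKM.

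Of 65 measured genes reported elsewhere as activated by MYC, 3 were lower by 2-fold or more with the HKR3 plasmid and 0 higher. These were MCM5, at 85.9 and 34.9 FPKM, UNG, at 118 and 50.9 FPKM, and MCM4, at 122 and 60.02 FPKM, a pair of helicase subunits and a DNA repair enzyme, all known for replication. The log2 difference of MCM4, -1.01, was within 2-fold after scaling, at -0.86, with the median difference set to 0, at -0.99, and with a pseudocount of 5, at -0.97. SLC19A1, a folate carrier, was at 41.2 and 20.4 FPKM, and past 2-fold only with a pseudocount of 0.1, at -1.01. The median of the list was -0.22 and 46 of 65 genes were below 0, or 70.8%, against 51.4% of all measured genes. The list's median level was 55.9 FPKM, against 13.2 FPKM for all measured genes. The 2996 genes averaging 30 FPKM or more had a median of -0.19, with 65.9% below 0, and the 52 list genes at such levels had -0.26, with 76.9% below 0. After scaling to the control's sum the median of the list was -0.06, beside 0.12 for all measured genes. In the library labelled siTERT 0 genes of this list were past 2-fold, and its median was -0.03, or 0.01 after scaling.

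Genes reported as repressed by MYC went both ways in the HKR3 library. Of 13 measured, 7 were at least 2-fold higher and 2 lower, with a median of 1.25, or 0.73 with no filter. GADD45A, a stress-induced growth arrest gene, was at 18.3 FPKM in control cells, 148 FPKM with the HKR3 plasmid and 21.0 FPKM under the siTERT label. THBS1, thrombospondin, was at 3.38, 30.04 and 5.28 FPKM, and KLF6, a zinc finger factor, at 8.67, 43.7 and 13.9 FPKM in that order. CDKN2B, the kinase inhibitor p15, was at 4.24, 34.4 and 10.8 FPKM. The other higher genes were HBP1, CDKN1B and DDIT3, and the lower ones CDKN1C and NDRG2, which with a pseudocount of 5 were within 2-fold, at -0.66 and -0.69. Several of these genes are also known to respond to stress and other signals. In the library labelled siTERT, 2 of the 13 were at least 2-fold higher, CDKN2B and CDKN1A, beside 0.282% of all genes. With a pseudocount of 5 both were within 2-fold there, at 0.77 and 0.90. CDKN1A was at 15.8 FPKM in control cells, 8.71 FPKM with the HKR3 plasmid and 33.7 FPKM under the siTERT label. No gene of the other 9 lists was past 2-fold in that library.

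**Figure D4:**
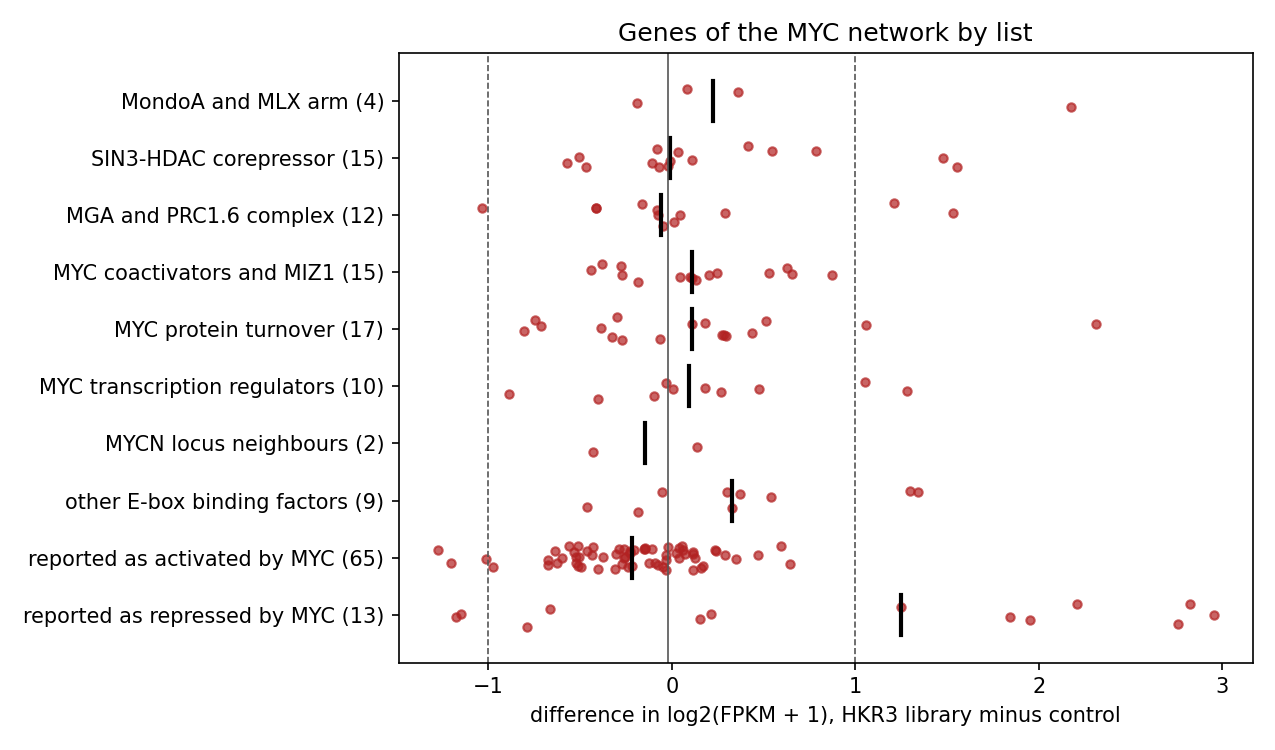
Difference in log2(FPKM + 1) between the HKR3 library and the control for the measured genes of each list, with 1 point per gene, a black bar at the list's median and dashed lines at 2-fold; vertical scatter within a list carries no meaning. The list reported as repressed by MYC has its median at 1.25 (0.73 with no filter), and the list reported as activated by MYC at -0.22.

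The genes whose pattern over the 3 libraries was most like that of MYCN were SNORC, ANXA6, CPB2, DUT and CDK10. Likeness was the distance between the pairs of log2 differences from the control, and 6348 genes averaging 10 FPKM or more were searched. SNORC, at 18.0 FPKM in control cells, 4.10 FPKM with the HKR3 plasmid and 13.5 FPKM under the siTERT label, was nearest with a distance of 0.07. The other distances lay between 0.29 and 0.36. DUT, the enzyme that removes dUTP, was at 67.4, 21.2 and 51.7 FPKM, and ANXA6, an annexin, at 32.2, 9.40 and 23.6 FPKM. CPB2, a plasma carboxypeptidase, was at 28.3, 8.01 and 24.7 FPKM, and CDK10 at 57.4, 17.8 and 39.7 FPKM. With 3 libraries, such likeness rests on 2 differences that share the control.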

How the data were processed

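RNA sequencing of 3 Hep3B libraries was used. The deposited values are FPKM per gene and library, which the authors calculated. STAR 2.5.0, Cufflinks and Cuffdiff 2.2.1 with hg19 were used, per the submitters' processing notes, and libraries were stranded, per the labels' protocols. For settings, strand use in counting and further scaling the sources used here give nothing, and a gene with many fragments lowers the FPKM of others.

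Of 19869 identifiers, 19310 matched a symbol. Differences are of log2(FPKM + 1), which understates changes of low genes, over the 10974 genes averaging 1 FPKM or more, calculated with pandas 2.3.3 and numpy 2.4.6. The calculation was tested on simulated data, with large planted changes in well expressed genes only. Low genes, changes near 2-fold and the fragment estimates were not tested in this way. Fragments were estimated from the FPKM worth of 1 fragment in low genes with a single transcript of at least 1000 bases (GENCODE v29): 1.04e+07, 1.13e+07 and 1.15e+07 in the control, HKR3 and siTERT-labelled libraries. Within 25% of 1 fragment lay 64 of 114, 63 of 109 and 72 of 124 low genes. Intervals are exact binomial limits at 95% (scipy 1.17.1).

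Named genes were the 10 members, ZBTB48, TERT, up to 4 genes per list with the largest absolute difference in the HKR3 library, and the 5 genes nearest to MYCN. SIN3A, RAB24, PRELID1, the markers, and the genes past 2-fold in the list reported as repressed by MYC were named outside this rule. Members and lists were chosen with earlier results of these data known. Alternatives were 2 other pseudocounts, 2 scalings and 2 filters. A further marker gene is not reported here.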

Additional observations from a re-analysis of the deposited data

How the results depend on the processing

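With 1 library per group, no replicate could be left out. No paired analysis was possible because each group holds 1 library and the labels carry no replicate numbers. Across pseudocounts of 0.1 and 5, scaling to the control's sum (as in TPM), a median difference set to 0, no filter and a mean of at least 5 FPKM, the counts of network genes past 2-fold of the control were the same, with 1 higher and 2 lower in the HKR3 library. Of 174 recomputed differences of these genes, 2 took another sign, those of MXD4 and MGA between the HKR3 library and the library labelled siTERT after scaling to the control's sum, at 0.10 and 0.04. A pseudocount of 0.1 gave 2 higher genes in that comparison, in place of 1. With the HKR3 plasmid, 6 list genes were at least 2-fold lower, against 2 with a pseudocount of 5, 4 after scaling to the control's sum, 5 with the median set to 0 and 7 with a pseudocount of 0.1. The list genes at least 2-fold higher were 18, against 13 with a pseudocount of 5 and 19 after scaling. The lists hold 171 distinct genes, measured or not. Of all measured genes, 5.52% were higher and 2.52% lower with the HKR3 plasmid, or 7.84% and 1.52% after scaling. Under the siTERT label a pseudocount of 5 gave 0 higher list genes, in place of 2. The median of the list reported as repressed by MYC was 0.73 with no filter.

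The ratio of MYC-type to antagonist sums was, without MYCN, 0.951, 0.922 and 0.994 in the control, HKR3 and siTERT-labelled libraries. Without MYCN and MXD1 it was 0.9999, 1.48 and 1.06. Without MGA it was 1.93, 1.16 and 1.78, without MXD3 2.47, 1.151 and 2.26, and without MXD1 1.85, 1.71 and 1.70. Leaving out MXD1, MXD3, or MYCN with MXD1 was chosen after seeing the data. Depth limits MYCL most.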

Other observations

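Promoter motifs were set against the differences of all measured genes with a RefSeq promoter, as a description with no test. The E-box CACGTG was in the promoter of 28 of 54 genes reported as activated by MYC, or 51.9%, and of 13.1% of measured genes. The 1178 measured genes with this E-box differed from the control by a median of -0.02 (log2) with the HKR3 plasmid, and the 7802 without it also -0.02. Of those with it 5.69% lay above and 2.04% below the 2-fold threshold, against 5.49% and 2.35% of those without.

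The 1037 genes with the telomere repeat TTAGGG in the promoter had a median of -0.03 and the 7943 without it -0.02. Of these, 6.46% and 5.39% were at least 2-fold higher, and 2.12% and 2.33% lower. Genes with the AP-1 motif TGANTCA, 589 in number, had a median of 0.10 with the HKR3 plasmid, against -0.03 for the 8391 without it, and 7.98% of them were at least 2-fold higher, against 5.34%. Genes with the E2F form TTTCCCGC, 300 in number, had a median of -0.09, against -0.02 for the others, with 3.67% and 2.26% at least 2-fold lower. For TTTGGCGC, the form in the MYCN promoter, 127 genes had a median of -0.04, against -0.02 for the 8853 without it. Of those with it 3.15%, or 4 genes, were at least 2-fold lower, against 2.29% of those without, and 5.51% of both were at least 2-fold higher. MYCN, whose low level was known when the set was chosen, is among those 4 genes, and nothing is read from that share.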
